A study of Mus musculus with 25 samples.

Results

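The 35 DNA replication and S phase genes described here encode the proteins that open replication origins, copy the DNA, supply its nucleotides and rebuild chromatin behind the fork. They were chosen by name, with earlier results of these data known, as a list of 35 of the 23366 genes in the expression table. All 35 were among the 12251 genes that passed the filter on low values. Their levels were read in 25 bulk RNA-seq libraries of CD8+ T cells taken from B16F10 melanoma tumours, a transplantable mouse melanoma line, grown in C57BL/6 mice. The 16 wild-type (WT) libraries were set against 3 libraries with conditional knockout (cKO) of Prdm1, 3 with cKO of c-Maf, the product of the gene Maf, and 3 with conditional knockout of both (cDKO). Every library came from whole tumour-infiltrating CD8+ cells, about 2000 of them lysed on average, amplified by an adapted SMART-Seq 2 protocol. No treatment other than the tumour is labelled, and no label states the Cre line that deletes the genes or the age of the mice. Nor do the labels say which libraries came from separate animals, so a p-value measures the spread between libraries.

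Before S phase a ring of MCM proteins is loaded at each replication origin with the help of Cdc6 and Cdt1, and it becomes the fork helicase once Cdc45 and the GINS complex join it. Polymerases then copy both strands, PCNA holds them on the DNA, and newly made histones and DNA methylation are put in place behind the fork. Many of these genes are transcribed together at the G1 to S boundary under E2F transcription factors. Within tumours, activated CD8+ T cells divide before and while they lose function, and Prdm1 (Blimp-1) and c-Maf are transcription factors of effector and dysfunctional T cells.

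Values are given in the units of the deposited table, a normalised signal whose scale is not stated. Total signal was between 389650 and 475956 per library, and between 12749 and 15161 genes had a value above 0. Sequencing depth is unknown, so no counting error can be given for a value. Prdm1 signal was 6.45 to 24.85 in the WT libraries against 0.41 to 4.71 in the Prdm1 cKO and 1.18 to 4.69 in the cDKO libraries, with no overlap. Maf was at or below 1.09 in every library and reached 0.93 in c-Maf cKO library C1, so its level could not check the c-Maf labels. CD8 T cell markers were present in all groups (mean Cd8a signal 165 in WT, 108 in Prdm1 cKO, 191 in c-Maf cKO and 107 in cDKO). By the order of the columns the libraries fall into 3 runs, called column sets here, whose meaning is not labelled. Set 1 holds 7 WT and the Prdm1 cKO libraries, set 2 holds 4 WT and the c-Maf cKO libraries, and set 3 holds 5 WT and the cDKO libraries.

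Summed over the 35 genes, signal in the 16 WT libraries ran from 957 to 1942 with a median of 1278. The sums were 971.5, 720.2 and 728 in Prdm1 cKO libraries A5, A6 and A9. In cDKO libraries A1, A2 and C2 they were 821, 716 and 933. All 3 cDKO sums lay below the lowest WT sum, and of the Prdm1 cKO sums only that of A5 lay within the WT range. The c-Maf cKO sums were 1499, 1700 and 1654, inside the WT range. WT libraries differed by column set as well: sums were 957 to 1660 in set 1, 1463 to 1942 in set 2 and 1053 to 1267 in set 3, and all 35 genes had their highest WT mean in set 2. An F test between the WT column sets in limma called 3 of the 35 genes (Chaf1a, Rfc3 and Dut, adjusted p = 0.024, 0.0313 and 0.0326), beside 2.75% of all genes tested. At an unadjusted p under 0.05 that test took in 25 of the 35, beside 18.3% of all genes.

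The signal of the CD3 genes moved with the same groups. The mean of Cd3d, Cd3e and Cd3g, the invariant chains of the T cell receptor complex, was 194 to 548 in WT, 234 to 298 in Prdm1 cKO, 428 to 471 in c-Maf cKO, and 215, 268 and 405 in cDKO libraries A1, A2 and C2. The 3 genes did not move alike, since mean signal in WT and in cDKO was 397 and 216 for Cd3g, 526 and 408 for Cd3e, and 271 and 264 for Cd3d. The 8 CD8 T cell markers had a median log2 fold change of -0.17 in cDKO, with 1 called lower, beside 6.85% of all genes. In Prdm1 cKO their median was -0.29, with none called, beside 1.87% of all genes called lower. After each library was rescaled to its CD3 mean, the summed signal of the 35 genes was 758 to 2363 in WT and 913 to 1283 in Prdm1 cKO. It was 1233 to 1458 in c-Maf cKO and 869 to 1443 in cDKO. The highest WT sum was that of library B3, which had the lowest CD3 mean, 194, and the next highest was 1692 in A10. The groups overlapped on this scale. In bulk RNA a smaller share of dividing T cells and less of these messengers per cell cannot be told apart.

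**Figure D1:**
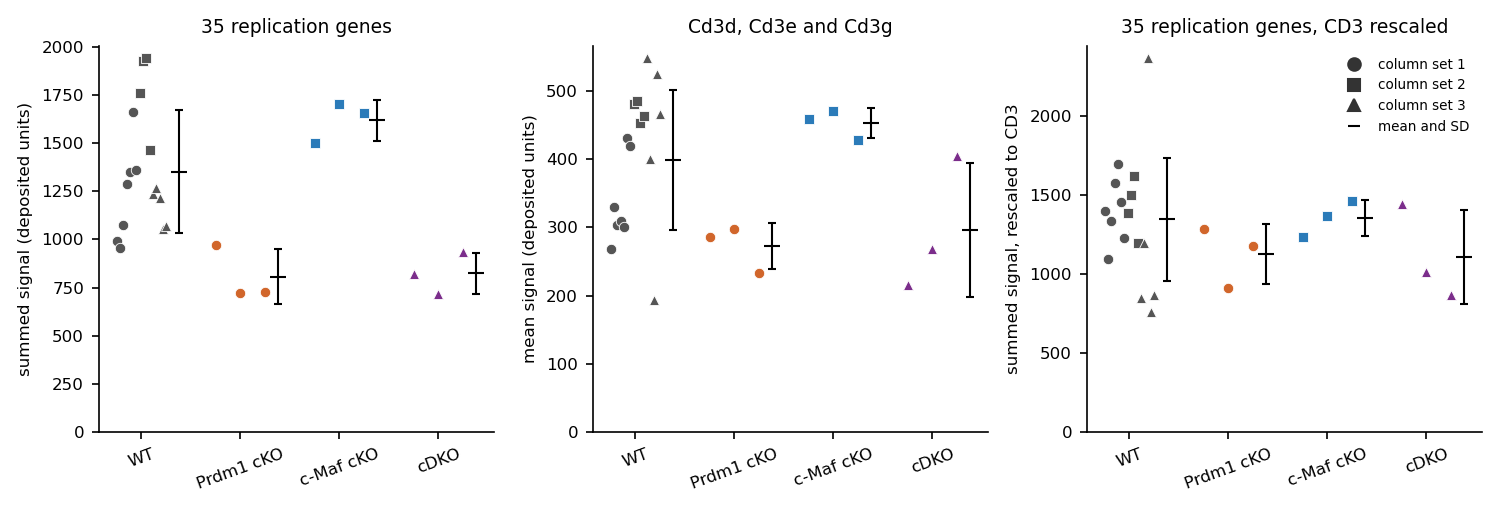
Summed signal of the 35 replication genes per library (left), mean signal of Cd3d, Cd3e and Cd3g (middle), and the summed signal after rescaling each library to its CD3 mean (right), by genotype. Each point is 1 library, its shape gives the column set, and the bar gives the mean and SD; on the left the cDKO points (716 to 933) sit below all WT points (957 to 1942), and on the right the genotypes overlap.

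Across the 35 genes, limma on log2(value + 1) called 23 lower and 0 higher in cDKO than in WT, at an adjusted p under 0.05, beside 6.85% of all tested genes called lower and 5.09% called higher. In Prdm1 cKO it called 13 lower and 0 higher, beside 1.87% and 1.58% of all genes. In c-Maf cKO it called none of the 35, and 0% of all genes. The list was chosen with earlier results of these data known, so the shares of all genes are no independent yardstick for it. The median log2 fold change of the 35 genes was 0.33 in c-Maf cKO, -0.78 in Prdm1 cKO and -0.75 in cDKO, where the medians of all tested genes were 0.00, -0.02 and -0.03. These 3 comparisons share the 16 WT libraries, so their values are given side by side and not as independent results. Of the 23 genes lower in cDKO, 11 were also called in Prdm1 cKO. Mcm4 and Rrm2 were called in Prdm1 cKO alone, and 10 genes were called in neither.

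The counts depended on how the libraries were scaled and grouped. Rescaled to the CD3 genes, 0 of the 35 were called in cDKO and 0 in Prdm1 cKO, beside 1.48% and 0.453% of all genes called lower. On that scale 7 members in cDKO and 4 in Prdm1 cKO had an unadjusted p under 0.05. Of all 12583 genes tested on it, 3058 and 3312 did. Their medians were -0.34 and -0.30, but the rescaling raised the median of all genes to 0.31 and 0.38, so the 35 genes lay 0.65 and 0.68 below the median gene. With column set as a covariate limma called 8 in cDKO (Mcm2, Mcm6, Prim1, Pold1, Rpa2, Tk1, Dnmt1 and Hells) and 4 in Prdm1 cKO (Mcm3, Mcm5, Mcm6 and Chaf1a), beside 3.58% and 0.302% of all genes. The medians were then -0.60 and -0.61. An unadjusted p under 0.05 was found for 25 and 24 of the 35, beside 2616 and 1776 of all 12251 genes. Without cDKO library A2 the count in cDKO was 2 at a median of -0.59, without A1 it was 6 at a median of -0.79, and without C2 it was 20. Without Prdm1 cKO library A6 or A9 the count in Prdm1 cKO was 1, at medians of -0.62 and -0.66.

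**Figure D2:**
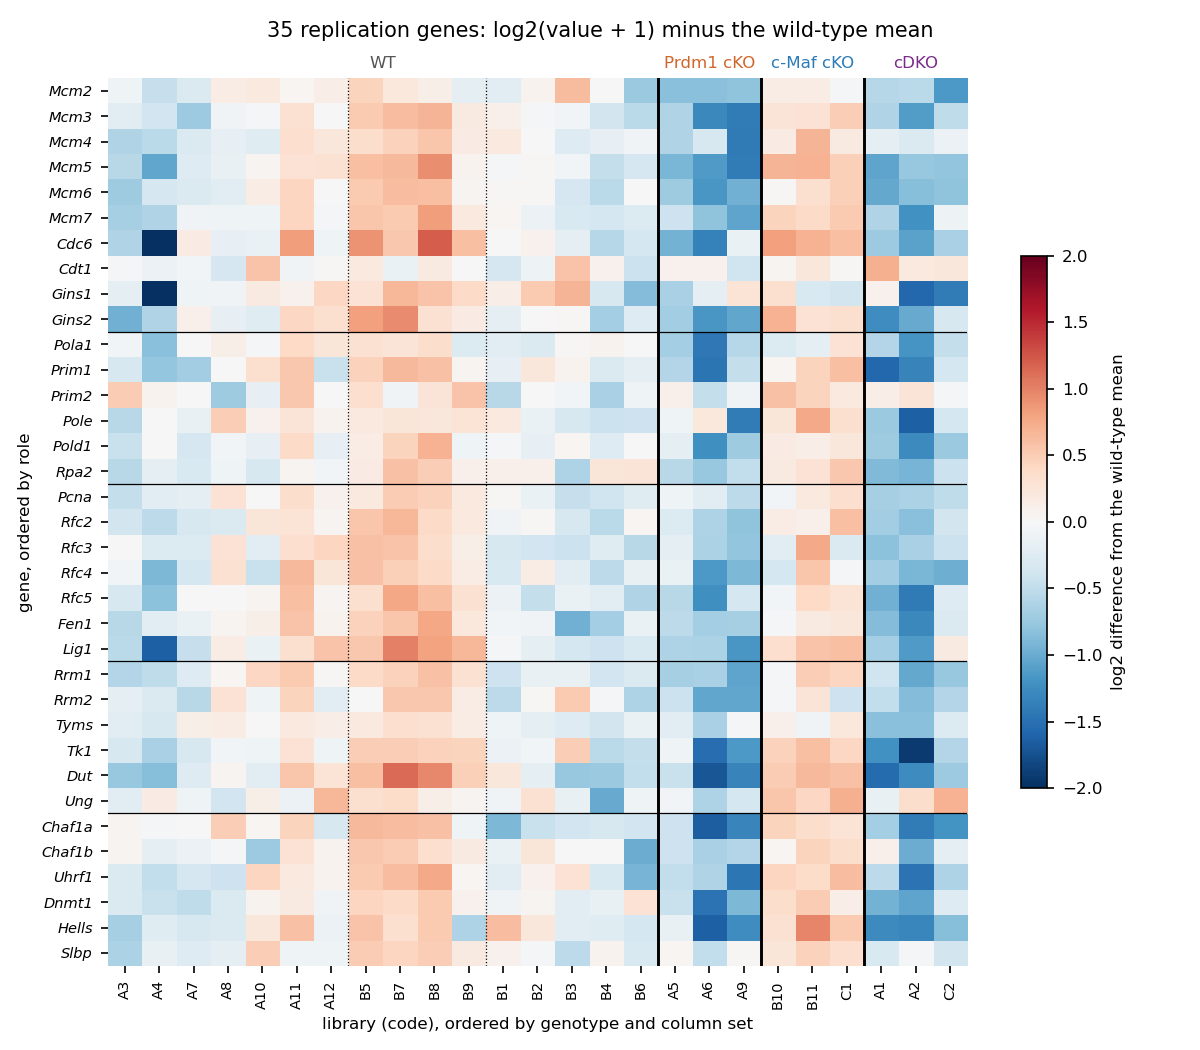
Difference of log2(value + 1) from the WT mean for each of the 35 genes (vertical axis, in the order of their roles, separated by lines) in each of the 25 libraries (horizontal axis, by genotype, with dotted lines between WT column sets). Blue is lower and red higher than the WT mean; most genes are blue in the Prdm1 cKO and cDKO libraries, and WT set 2 (B5, B7, B8 and B9) is mostly red.

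Origin licensing and helicase genes came first in this order. Among the 10, limma called 5 lower in cDKO (Mcm2, Mcm3, Mcm5, Mcm6 and Gins2; median log2 fold change -0.78) and 6 in Prdm1 cKO, the same 5 and Mcm4 (median -0.82). Mcm6, a subunit of the MCM ring, had a signal of 59.0 to 149 in WT, with a median of 97.6. In cDKO it was 47.2, 53.5 and 55.1, and in Prdm1 cKO 58.5, 42.6 and 49.3. All 6 of these libraries were below every WT library, and the log2 fold changes were -0.89 ± 0.21 (SE) in cDKO (limma adjusted p = 0.0056) and -0.95 ± 0.21 in Prdm1 cKO (adjusted p = 0.0145). The call in cDKO was lost in 3 of the 35 alternatives, and rescaled to CD3 the fold change was -0.47 (adjusted p = 0.224).

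Mcm2, a ring subunit that also binds histones, had WT signals of 34.6 to 90.5 with a median of 60.8. The Prdm1 cKO values were nearly equal, 32.3, 32.2 and 33.0, just below the lowest WT library. The cDKO values were 39.04, 39.98 and 25.81, so 2 of these 3 lay inside the WT range. Its log2 fold changes were -0.82 ± 0.19 in Prdm1 cKO (limma adjusted p = 0.0169) and -0.75 ± 0.19 in cDKO (adjusted p = 0.00832). Rescaled to CD3 they were -0.33 and -0.33 (adjusted p = 0.504 and 0.564).

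The ring subunits Mcm3 and Mcm5 fell in both knockouts, and the difference between the 2 knockouts was called for neither. Mcm3 signal was 44.3 to 120.2 in WT (median 72.9), 48.8, 29.9 and 27.4 in Prdm1 cKO, and 48.4, 33.8 and 51.7 in cDKO. Its log2 fold change was -1.10 ± 0.23 in Prdm1 cKO (limma adjusted p = 0.00955) and -0.75 ± 0.23 in cDKO (adjusted p = 0.0291). Mcm5 signal was 26.6 to 106.7 in WT (median 55.4), 29.07, 24.95 and 20.45 in Prdm1 cKO, and 26.3, 32.6 and 31.7 in cDKO. The lowest WT value of both genes came from set 1, and for both the WT range reached into the knockout values. Mcm5 fell by 1.15 ± 0.25 on the log2 scale in Prdm1 cKO (limma adjusted p = 0.0139) and by 0.87 ± 0.25 in cDKO (adjusted p = 0.0224).

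Mcm4 had the smallest difference from WT of the 6 MCM genes in cDKO. Its signal there was 38.3, 36.0 and 40.6, against 28.8 to 65.3 in WT (median 43.2), with a log2 fold change of -0.20 ± 0.21 (limma adjusted p = 0.63). In Prdm1 cKO it was 28.59, 34.98 and 15.95, a log2 fold change of -0.78 ± 0.21 (adjusted p = 0.0368). The direct difference, cDKO minus Prdm1 cKO, was 0.58 ± 0.27 with an unadjusted p of 0.043 and a limma adjusted p of 0.375. Rescaled to CD3, Mcm4 in cDKO turned to 0.22. Mcm7 signal was 43.5 to 125 in WT (median 66.5), 52.1, 39.6 and 33.1 in Prdm1 cKO, and 45.5, 29.6 and 64.8 in cDKO, and it was called in neither knockout (-0.64 in cDKO and -0.76 in Prdm1 cKO, limma adjusted p = 0.0782 and 0.0657).

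Neither loading factor, Cdt1 or Cdc6, was called. Cdt1 signal in cDKO was 45.5, 31.3 and 32.3, all above the WT median of 26.4 and within or above the WT range of 20.1 to 41.2, at a log2 fold change of 0.38 ± 0.17 (limma adjusted p = 0.165). In Prdm1 cKO it was 28.9, 29.0 and 20.5, close to WT (-0.08, adjusted p = 0.845). Cdc6 was low everywhere, 0.02 to 10.31 in WT with a median of 3.75, 1.97, 1.33 and 2.11 in cDKO, and 1.54, 0.92 and 3.44 in Prdm1 cKO. Its log2 fold changes were -0.81 in both (limma adjusted p = 0.227 in cDKO and 0.27 in Prdm1 cKO). The GINS subunit Gins2 fell in both (-0.86 and -0.96, limma adjusted p = 0.0411 and 0.0492), while Gins1, listed at 0 in 1 WT library, was called in neither.

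**Figure D3:**
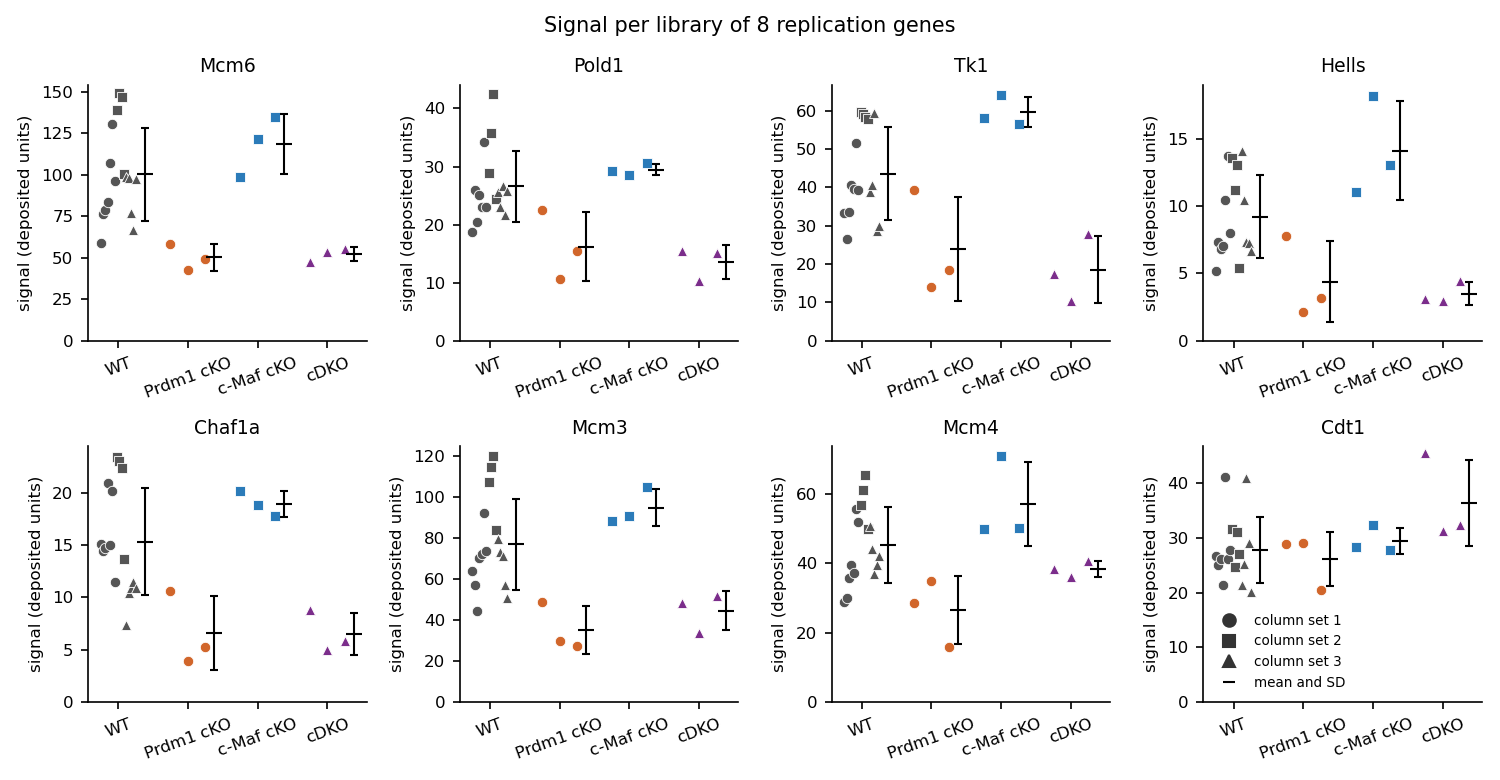
Signal per library, in deposited units, of Mcm6, Pold1, Tk1, Hells, Chaf1a, Mcm3, Mcm4 and Cdt1 by genotype. Each point is 1 library, its shape gives the column set, and the bar gives the mean and SD; all cDKO points of Mcm6, Pold1 and Hells are below all WT points, while those of Mcm4 and Cdt1 are not.

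Since E2F sites are a known feature of these promoters, the DNA just before the start of the genes was searched. Promoter sequence from RefSeq (GRCm38.p6) matched 29 of the 35 genes. The 4 words searched, on either strand of the 250 bases before each start, were TTTCCCGC, TTTCGCGC, TTTGCCGC and TTTGGCGC. At least 1 of them was present in 9 of the 29 genes (31%), namely Mcm5, Mcm6, Mcm7, Cdc6, Pola1, Rfc3, Uhrf1, Dnmt1 and Hells, and in 2.16% of 27025 genes in the same table. A match is a string of letters and not a measured site. The 170 bases before the start of 4 genes follow, 5′ to 3′ on the gene's strand with the words in capitals. Mcm6, Mcm5 and Pola1 are shown because they were lower in both knockouts, and Cdc6 because it was called in neither. The start is that of the RefSeq table. For Mcm6 and Mcm5 the bases after it were not found in a GENCODE transcript of the gene, so the place of their start is less sure than that of the other two. In Mcm6 and Mcm5 a word and the reverse complement of another overlap and read as 1 run of 12 capitals.
Mcm6 (chr1:128359706-128359875, minus strand): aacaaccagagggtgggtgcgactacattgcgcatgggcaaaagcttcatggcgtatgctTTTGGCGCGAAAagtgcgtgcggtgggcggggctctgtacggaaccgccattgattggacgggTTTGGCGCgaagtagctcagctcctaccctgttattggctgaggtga
Mcm5 (chr8:75109339-75109508, plus strand): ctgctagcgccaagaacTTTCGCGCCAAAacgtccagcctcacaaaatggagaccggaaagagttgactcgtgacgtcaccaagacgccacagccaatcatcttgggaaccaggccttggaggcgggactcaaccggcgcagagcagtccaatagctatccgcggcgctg
Pola1 (chrX:93632156-93632325, minus strand): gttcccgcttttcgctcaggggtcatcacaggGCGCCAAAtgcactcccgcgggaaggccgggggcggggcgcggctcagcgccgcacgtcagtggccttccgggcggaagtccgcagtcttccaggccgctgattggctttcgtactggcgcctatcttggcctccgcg
Cdc6 (chr11:98907981-98908150, plus strand): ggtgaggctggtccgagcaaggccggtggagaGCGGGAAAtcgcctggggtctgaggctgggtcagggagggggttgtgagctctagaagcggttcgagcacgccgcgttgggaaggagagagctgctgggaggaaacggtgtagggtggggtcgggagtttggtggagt
Genes with and without a word were both among those called. In cDKO, 6 of the 9 genes with a word and 14 of the 20 without one were called lower, with median log2 fold changes of -0.81 and -0.75. In Prdm1 cKO the counts were 5 of 9 and 6 of 20, with medians of -0.90 and -0.72. The CCAAT box, another element of cell cycle promoters, was in 16 of the 29 (55.2%) and in 37.5% of all genes, searched as CCAAT on either strand of the same 250 bases. TTTGAA, the core of the cell cycle homology region of mitotic genes, was in 3 of the 29 (10.3%) and in 18.3% of all genes. The TATA box, searched as TATAAA, was in 1 of the 29 (3.45%) and in 14.3% of all genes.

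Primase and polymerase genes had the highest share of calls in cDKO, 5 of 6 (Pola1, Prim1, Pole, Pold1 and Rpa2; median log2 fold change -0.83). In Prdm1 cKO 2 of the 6 were called, Pola1 and Pold1 (median -0.66). Pold1, the catalytic subunit of lagging-strand polymerase delta, had WT signals of 18.8 to 42.5 with a median of 25.4. The cDKO values were 15.5, 10.2 and 15.1, all below WT, and the Prdm1 cKO values were 22.5, 10.6 and 15.5, of which only that of A5 was within the WT range. It had the smallest p of the 35 in cDKO, with a log2 fold change of -0.91 ± 0.19 (limma adjusted p = 0.00281), and fell by 0.71 ± 0.19 in Prdm1 cKO (adjusted p = 0.0393). The cDKO call was lost in 2 of 35 alternatives, the CD3 rescaling (-0.50, adjusted p = 0.246) and the omission of library A2 (adjusted p = 0.0671).

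Pola1, the catalytic subunit of polymerase alpha, which extends the primers, had WT signals of 8.62 to 21.6 (median 16.3). It was at 9.75, 5.36 and 10.6 in Prdm1 cKO and at 10.5, 6.61 and 11.4 in cDKO, at the low end of the WT range or below it. The log2 fold changes were -0.90 ± 0.21 (limma adjusted p = 0.0202) and -0.75 ± 0.21 (adjusted p = 0.0193). Of the 2 primase subunits, Prim1, the catalytic one, fell by 1.09 in cDKO (limma adjusted p = 0.00925), and Prim2, the regulatory one, was at 0.12 (adjusted p = 0.813), the largest p of the 35. Prim2 signal was 18.0, 19.8 and 15.9 in cDKO and 17.6, 11.6 and 15.6 in Prdm1 cKO, against 9.60 to 24.7 in WT. The single-strand binding protein Rpa2 and Pole, of the leading-strand polymerase, fell in cDKO (-0.75 and -0.91, limma adjusted p = 0.00854 and 0.0268). In Prdm1 cKO they were at -0.60 and -0.43 (adjusted p = 0.0625 and 0.386).

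Clamp, clamp loader and Okazaki fragment genes gave 5 of 7 calls in cDKO against WT (Pcna, Rfc2, Rfc4, Rfc5 and Fen1; median log2 fold change -0.64). In Prdm1 cKO none of the 7 passed limma's adjusted threshold, and the median was -0.62. An unadjusted p under 0.05 was found for 6 of the 7, beside 2529 of all 12251 genes. The comparison cDKO minus Prdm1 cKO gave no call among the 7. Pcna, the sliding clamp, had the highest mean WT signal of the 35 genes, 108, and ranged from 76.2 to 151 in WT. It was at 66.2, 67.8 and 73.9 in cDKO, all below WT, and at 100.1, 90.3 and 73.2 in Prdm1 cKO. The log2 fold changes were -0.61 ± 0.18 (limma adjusted p = 0.0223) and -0.28 ± 0.18 (adjusted p = 0.384). Fen1, the flap nuclease that trims Okazaki fragments, fell by 0.82 in cDKO (limma adjusted p = 0.0328). Lig1, the ligase that seals them, was at -0.54 (adjusted p = 0.372), with WT signals spread from 5.72 to 41.0. With column set as a covariate none of the 7 was called.

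Among the 6 genes of nucleotide supply and uracil removal, 4 were lower in cDKO (Rrm1, Tyms, Tk1 and Dut; median -0.69) and 2 in Prdm1 cKO (Rrm1 and Rrm2; median -0.81). Tk1, the thymidine kinase of the salvage route, had the largest fall of the 35 in cDKO. Its signal was 26.5 to 59.7 in WT (median 40.1), 17.5, 10.4 and 27.8 in cDKO, and 39.4, 13.9 and 18.3 in Prdm1 cKO. Only cDKO library C2 and Prdm1 cKO library A5 reached the WT range. The log2 fold change was -1.24 ± 0.27 in cDKO (limma adjusted p = 0.00319) and -0.92 ± 0.27 in Prdm1 cKO (adjusted p = 0.0515). Rescaled to CD3, the cDKO value was -0.83 (adjusted p = 0.102).

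Rrm1 and Rrm2 form ribonucleotide reductase, which makes deoxynucleotides. Rrm1 was lower in both knockouts (-0.73 in cDKO and -0.79 in Prdm1 cKO, limma adjusted p = 0.0285 and 0.0422), and its Prdm1 cKO values of 28.99, 29.20 and 21.96 were all below the lowest WT value of 30.6. Rrm2 was called in Prdm1 cKO (-0.84, adjusted p = 0.0322) and fell short in cDKO (-0.65, adjusted p = 0.0515). Dut, which removes dUTP, was at -1.18 in cDKO (limma adjusted p = 0.0252) and -1.16 in Prdm1 cKO (adjusted p = 0.0558). Ung, the glycosylase that cuts uracil out of DNA, had values of 7.43, 10.9 and 14.1 in cDKO, 8.04, 5.08 and 6.35 in Prdm1 cKO and 12.8, 11.5 and 14.3 in c-Maf cKO, against 3.67 to 13.9 in WT. It was called in none of them.

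Chromatin copying, DNA methylation and histone mRNA genes gave 4 of 6 calls in cDKO (Chaf1a, Uhrf1, Dnmt1 and Hells; median -0.81) and 3 of 6 in Prdm1 cKO (Chaf1a, Dnmt1 and Hells; median -0.89). Hells, a chromatin remodeller needed for DNA methylation, had WT signals of 5.19 to 14.1 (median 7.68). It was at 3.07, 2.98 and 4.46 in cDKO, all below WT, and at 7.80, 2.15 and 3.15 in Prdm1 cKO, where A5 was at the WT median. The log2 fold changes were -1.14 ± 0.28 (limma adjusted p = 0.00744) and -1.01 ± 0.28 (adjusted p = 0.04).

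Chaf1a, the large subunit of the histone chaperone CAF-1, had WT signals of 7.34 to 23.4 (median 14.6). In cDKO it was at 8.77, 4.94 and 5.84 and in Prdm1 cKO at 10.7, 3.95 and 5.23, so that 1 library of each group was inside the WT range. Its log2 fold changes were -1.09 ± 0.27 in cDKO (limma adjusted p = 0.00813) and -1.13 ± 0.27 in Prdm1 cKO (adjusted p = 0.0212). With column set as a covariate the cDKO value was -0.60 (adjusted p = 0.146) and the Prdm1 cKO value -1.23 (adjusted p = 0.0145), Chaf1a being 1 of the genes that differed between WT sets. Chaf1b, its partner subunit, was called in neither (-0.37 and -0.55, limma adjusted p = 0.361 and 0.175). Dnmt1, the maintenance DNA methyltransferase, had WT signals of 21.8 to 45.7, was at 22.9, 10.7 and 16.3 in Prdm1 cKO, and fell by 0.94 ± 0.21 on the log2 scale (limma adjusted p = 0.0145). In cDKO it was at 15.9, 14.6 and 26.1 and fell by 0.75 ± 0.21 (adjusted p = 0.0168). Slbp, which binds histone messenger stem-loops, was at -0.23 and -0.15 (adjusted p = 0.522 and 0.725).

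**Figure D4:**
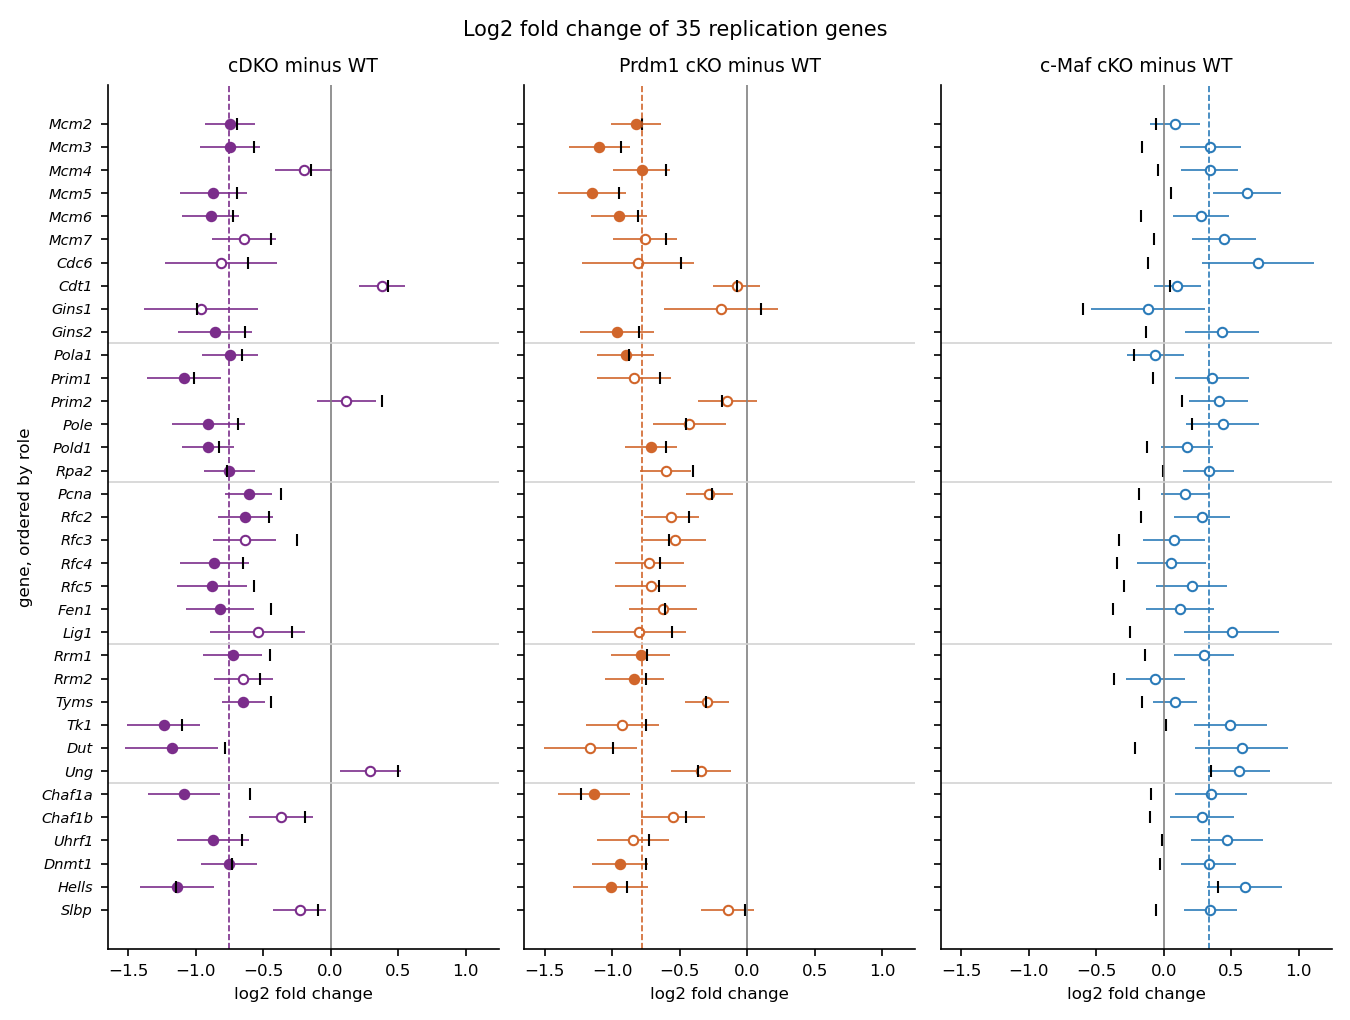
Log2 fold change against WT (horizontal axis) of the 35 genes (vertical axis, by role) in cDKO, Prdm1 cKO and c-Maf cKO. Circles give the limma value with its SE as a bar, filled where the adjusted p was under 0.05; black ticks give the value with column set as a covariate and dashed lines the median, -0.75, -0.78 and 0.33.

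Libraries were also compared without a model, by whether the groups overlap. All 3 cDKO libraries were below all 16 WT libraries for 4 of the 35 genes (Mcm6, Pold1, Pcna and Hells), as for 2.16% of all genes tested. Within column set 3, against 5 WT libraries, this held for 11 of the 35 and for 5.38% of all genes. The Prdm1 cKO libraries were below all WT for Mcm2, Mcm6 and Rrm1, as for 0.816% of all genes, and within set 1 also for Chaf1a, 4 of the 35, beside 2.29%. After CD3 rescaling no member met either rule in cDKO, beside 0.751% and 1.42% of all genes. In Prdm1 cKO on that scale no member met the first rule, beside 0.163%, and Mcm6 alone met the within-set rule, beside 0.604%.

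Loss of c-Maf alone gave values above WT that limma did not call. Of the 35 genes 32 had a positive log2 fold change, 3 had an unadjusted p under 0.05 (Ung, Mcm5 and Hells), and 755 of all 12251 genes did. Mcm5 was at 89.4, 90.7 and 78.1, a log2 fold change of 0.62 ± 0.25 (limma adjusted p = 0.8), and Hells at 11.1, 18.2 and 13.1, a log2 fold change of 0.60 ± 0.28 (adjusted p = 0.8). Ung was at 0.56 ± 0.23 (adjusted p = 0.8), above all 4 WT libraries of column set 2, a rule that 3.06% of all genes met. Mcm7, Prim2 and Tk1 followed, with log2 fold changes of 0.45, 0.41 and 0.49 (limma adjusted p = 0.813, 0.814 and 0.819). In c-Maf cKO libraries B10, B11 and C1 Mcm7 was at 95.9, 90.9 and 100.5, Prim2 at 25.04, 22.8 and 18.9, and Tk1 at 58.1, 64.1 and 56.5. Set 2, which holds the c-Maf cKO libraries, also held the WT libraries with the highest member signal. With column set as a covariate the median of the 35 genes turned from 0.33 to -0.11, and 28 of the 35 were negative.

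The double knockout was then compared with each single one. Between cDKO and Prdm1 cKO limma called 0 of the 35 genes, beside 0.327% of all genes lower and 0.0653% higher. Of the 35, 2 had an unadjusted p under 0.05 (Ung and Mcm4), beside 1544 of all 12251 genes. The median difference was 0.00, and single genes ranged from -0.77 (Gins1) to 0.64 (Ung). Differences of that size, between groups of 3 libraries each, were not called in a fit whose spread was estimated over all 25 libraries. Between cDKO and c-Maf cKO limma called 21 lower and 0 higher, beside 5.61% and 3.78% of all genes, with a median of -1.04. Tk1 fell by 1.73 ± 0.35 and Hells by 1.74 ± 0.36 on the log2 scale in that comparison (limma adjusted p = 0.00313 and 0.00384). cDKO and c-Maf cKO lie in different column sets. Once column set entered the fit 0 of the 35 passed, at a median of -0.40, beside 22 of all 12251 genes called lower. Rescaled to CD3, Hells alone of the 35 was called, beside 113 of all 12583 genes called lower. The departure of cDKO from the sum of both single effects was called for 0 of the 35, beside 0.00816% of all genes called lower, with a median of -0.32 that turned to 0.25 with column set as a covariate. Of the 35, Pole alone had an unadjusted p under 0.05 there (-0.92 ± 0.44, limma adjusted p = 0.417), beside 1436 of all 12251 genes.

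Other cell cycle genes were read from 5 further lists. Of 34 other replication genes, 8 were lower and 0 higher in cDKO (median log2 fold change -0.48), beside 6.85% and 5.09% of all genes. In Prdm1 cKO 3 of the 34 were lower (median -0.44), beside 1.87% of all genes. Cdc45, the helicase cofactor, fell by 1.45 ± 0.45 in cDKO and 1.75 ± 0.45 in Prdm1 cKO (limma adjusted p = 0.035 and 0.0314). Its values in cDKO libraries A1, A2 and C2 were 3.46, 5.87 and 13.6 and in Prdm1 cKO 11.6, 0.39 and 12.7, against 8.79 to 33.8 in WT. Cdc7, the kinase that fires origins, fell by 1.42 ± 0.29 in cDKO (adjusted p = 0.0021) and held its call in 34 of 35 alternatives. Asf1b, which hands histones to CAF-1, fell by 0.96 (adjusted p = 0.0217). In Prdm1 cKO the others called were Clspn, a fork checkpoint mediator, and Orc4, an origin recognition subunit (-1.19 and -0.67, limma adjusted p = 0.0129 and 0.0479). Clspn signal was low, at 0.47 to 1.23 in Prdm1 cKO against 1.79 to 4.99 in WT.

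Of 18 mitosis and proliferation genes, 14 were lower and 0 higher in cDKO (median -0.96), beside 6.85% and 5.09% of all genes. In Prdm1 cKO 2 of the 18 were lower (median -0.72), beside 1.87% of all genes. The largest falls in cDKO were those of Nusap1, Kif11 and Ube2c (-1.47, -1.27 and -1.18, limma adjusted p = 0.00924, 0.00232 and 0.00759), genes of the spindle and of the anaphase ubiquitin ligase. Kif11, the spindle motor, was at 2.97, 3.80 and 4.23 in cDKO, below every WT library (5.41 to 17.3), as for 2.16% of all genes. It was called in all 35 alternatives run, the CD3 rescaling included. Mki67, the proliferation antigen Ki-67, was at 6.15, 4.26 and 15.8 in cDKO libraries A1, A2 and C2 and at 6.56, 3.77 and 9 in Prdm1 cKO, against 8.82 to 22.02 in WT. It fell by 0.81 and 1.08 on the log2 scale (limma adjusted p = 0.0452 and 0.0254), and without cDKO library A2 the adjusted p in cDKO was 0.47. The other gene called in Prdm1 cKO was Birc5, the survivin gene (-0.95, limma adjusted p = 0.0364). Top2a, the mitotic topoisomerase, was counted in the list of 34 other replication genes and not among these 18. It fell in cDKO (-0.82, limma adjusted p = 0.0458) and was at -0.61 in Prdm1 cKO (adjusted p = 0.194).

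Of 24 G1 to S control genes, which govern entry into S phase, 3 were lower in cDKO, Cdk6 (-1.54), Ccna2 (-0.89) and E2f3 (-0.67), and Myc was higher (0.53), with limma adjusted p = 0.00713, 0.0262, 0.0422 and 0.0185. These shares lie near those of all genes, 6.85% lower and 5.09% higher. None was called in Prdm1 cKO, where 7 had an unadjusted p under 0.05, beside 2529 of all 12251 genes. Cdk6, a G1 kinase, was at 6.43, 11.4 and 32.4 in cDKO libraries A1, A2 and C2 against 20.7 to 80.0 in WT, so that C2 was within the WT range. E2f1, an activating E2F, was low in every group, 0.76 to 4.65 in WT, and was at 2.37 or less in cDKO, 2.85 to 5.45 in Prdm1 cKO and 4.33 to 7.21 in c-Maf cKO. Its log2 fold changes were -0.28, 0.58 and 0.94, none of them called (limma adjusted p = 0.583, 0.222 and 0.614). Among replication stress and repair genes, Blm, a helicase gene, was lower in Prdm1 cKO (-1.11, limma adjusted p = 0.0202). Its signal was low, at 1.03 to 1.89 there against 1.93 to 8.6 in WT.

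Of 14 cell cycle inhibitor and quiescence genes that could be tested, 4 were higher and 1 lower in cDKO, beside 5.09% and 6.85% of all genes. The share called lower there lies near that of all genes. In Prdm1 cKO 0 were higher and 1 lower, beside 1.58% and 1.87% of all genes. Cdkn1b, which encodes the kinase inhibitor p27, was at 21.8, 21.4 and 19.6 in cDKO libraries A1, A2 and C2, against 8.10 to 17.2 in WT. In Prdm1 cKO it was at 10.6, 12.7 and 10.1 and in c-Maf cKO at 8.39, 8.83 and 6.94. It rose by 0.86 ± 0.16 on the log2 scale in cDKO (limma adjusted p = 0.00111), was called in all 35 alternatives, and rose by 1.26 after CD3 rescaling. The difference from Prdm1 cKO was 0.86 ± 0.21 with a limma adjusted p of 0.0645, which missed the threshold. The largest rise was that of Klf2, a quiescence factor, at 12.70, 37.99 and 16.01 in cDKO libraries A1, A2 and C2 against 2.13 to 13.8 in WT (log2 fold change 1.53, limma adjusted p = 0.0201). Btg1, an antiproliferative gene, rose by 0.94 (adjusted p = 0.0249), and Cdkn2d by 0.85 (adjusted p = 0.0049). Cdkn2b, an INK4 inhibitor, was lower in cDKO and in Prdm1 cKO (limma adjusted p = 0.0205 and 0.0368). Its level was low, at 0.07 to 3.04 in WT, 0.17 or less in cDKO and 0 in all Prdm1 cKO libraries. It was also listed at 0 in c-Maf cKO library B11. Cdkn1a, encoding p21, was called in no knockout (log2 fold changes of 0.43 in c-Maf cKO, 0.96 in Prdm1 cKO and -0.05 in cDKO).

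**Figure D5:**
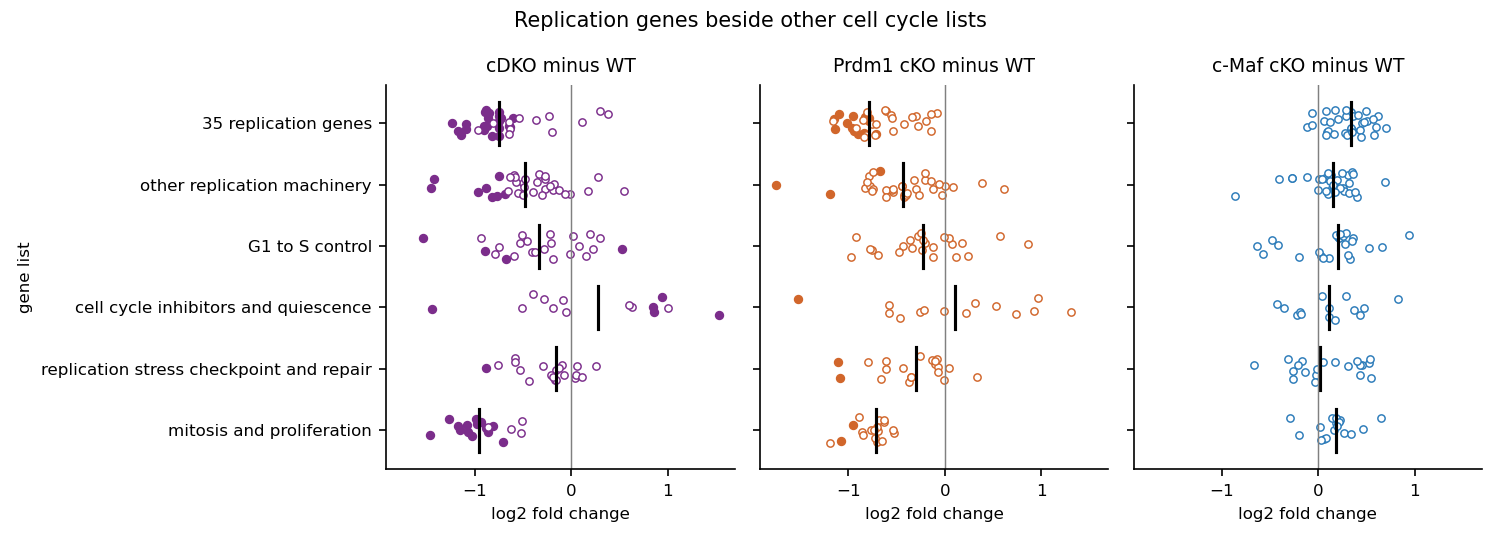
Log2 fold change against WT (horizontal axis) of each gene in the 35 replication genes and 5 other cell cycle lists (vertical axis), in cDKO, Prdm1 cKO and c-Maf cKO. Filled points passed an adjusted p under 0.05 in limma and black lines give the medians; in cDKO the medians are -0.75 for the 35 genes, -0.96 for mitosis genes and 0.27 for inhibitors.

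Marker lists of other cell types were also read by genotype. For the calls that follow, 6.85% of all genes were called lower and 5.09% higher in cDKO. In Prdm1 cKO the shares were 1.87% and 1.58%. Macrophage and monocyte markers, 14 of 15 in the table, summed to 540 to 2981 in WT and 1680 to 4894 in Prdm1 cKO. Their sums were 796 to 2088 in c-Maf cKO and 621 to 1275 in cDKO. Much of the sum was Ly6c2 in WT and cDKO (means of 682 and 649, beside mean sums of 1260 and 864.5). Ly6c2 was at 498 in Prdm1 cKO. The median log2 fold change of the 14 was 2.52 in Prdm1 cKO, with 1 called higher, and -0.93 in cDKO, with none called. Erythroid markers, 7 of 7 in the table, summed to 1.48 to 1568 in WT, 221 to 1842 in Prdm1 cKO, 16.1 to 133 in c-Maf cKO and 462 to 4240 in cDKO, with 3 of the 5 tested called higher in cDKO. Means of the erythroid factor Klf1 were 0.55 or less in every group, and globin genes carried most of the sum. Melanoma markers, 10 of 11 in the table, overlapped between all groups (8.03 to 3412 in WT and 107 to 1451 in cDKO). Markers of CD4 and regulatory T cells summed to 69.02 to 186.1 in WT, 43.2 to 104.3 in Prdm1 cKO, 127.5 to 167 in c-Maf cKO and 62.8 to 108.8 in cDKO, with 2 of 6 called lower in cDKO and 1 of 6 in Prdm1 cKO. Means of Cd4 were 0.44 or less and those of Foxp3 1.82 or less in every group. Dendritic cell markers summed to 61.1 to 2854 in WT, 1673 to 6932 in Prdm1 cKO, 92.3 to 1632 in c-Maf cKO and 111 to 378 in cDKO. Of the 10, 1 was called lower in cDKO, and Clec9a was listed at 0 in all libraries of Prdm1 cKO and cDKO. In Prdm1 cKO most of the sum was H2-Aa, H2-Ab1, H2-Eb1 and Cd74 (means of 677, 1252, 351 and 1180). Means of Itgax, Flt3, Zbtb46 and Xcr1 were lower there than in WT, and that of Cd209a was higher. With the macrophage and erythroid scores as covariates, an alternative chosen after the data were seen, 3 of the 35 replication genes were called in cDKO (Mcm2, Pold1 and Chaf1a) and 0 in Prdm1 cKO, beside 2.91% and 0.0245% of all genes called lower. The medians were then -0.75 and -0.58. The part of these cells in the differences was not tested beyond this fit.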

How the data were processed

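Bulk RNA of tumour-infiltrating CD8+ T cells was measured in 25 libraries. The authors deposited 1 table of normalised signal for 23366 genes. TopHat, RSEM, DESeq and build mm9 are named in the submitters' processing notes, with no role or version, and no label or header states the scale or the depth. The lowest values fell with transcript length, as in a length-scaled unit. Columns were matched to genotypes by their names, which carry no replicate number, and none was left out. Genes with a value of at least 1 in at least 3 libraries were fitted on log2(value + 1) with limma 3.58.1 (R 4.3.3; trend and robust empirical Bayes), all 25 libraries in 1 model without covariates, and p-values were adjusted over all 12251 genes by Benjamini-Hochberg. A fold change on this scale understates the change of low genes.

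The 35 genes and the other lists were chosen with earlier results of these data known. All 35 could be named. Given with the values of the knockout libraries compared were the 6 with the smallest p per comparison and the 2 with the largest p in cDKO. Named from each other list were the 3 called genes with the largest change, besides E2f1, Cdkn1a, Cdkn1b, Mki67 and Top2a. Genes named beyond this were chosen after their values were seen. An item of the repair list is not reported here. Alternatives changed the pseudocount (0.5 or 5), the filter, the scaling (CD3 genes, or median of ratios), the covariates (column set, code letter, marker scores), the groups in the fit, and left out each library in turn.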

Additional observations from a re-analysis of the deposited data

How the results depend on the processing

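Each result was recomputed under 35 alternatives, 25 of which left out 1 library. No paired analysis was possible because the columns carry no replicate number. For cDKO against WT the 23 genes called became 15 with no filter on low values, 0 rescaled to the CD3 genes, 8 with column set and 14 with code letter as a covariate, and 3 with the marker scores, and leaving out 1 library gave 2 to 26. For Prdm1 cKO against WT the 13 became 8 with no filter, 0 rescaled to CD3, 4 with column set, 0 with code letter, 8 with only the groups compared and 0 with the marker scores, and leaving out 1 library gave 1 to 19. With code letter 548 of all 12251 genes were called lower in cDKO and 19 in Prdm1 cKO. In Prdm1 cKO the median of the 35 was -0.60. An unadjusted p under 0.05 was then found for 24 of the 35 and for 1739 of all genes. For cDKO against c-Maf cKO the 21 became 1 rescaled to CD3, 0 with column set, 9 with code letter and 5 with the marker scores. Of all genes, 113 of 12583 were called lower there rescaled to CD3. Of all 12251 genes, 22 were called lower with column set, 322 with code letter and 221 with the marker scores, beside 687 without them. Leaving out 1 library gave 6 to 22 of the 35. Without cDKO library A2 that count was 6, without c-Maf cKO library C1 10 and without cDKO library A1 12; without WT library A11 or B5 the Prdm1 cKO count was 8. Against WT, the cDKO count was 20 without cDKO library C2, and the Prdm1 cKO count was 14 without Prdm1 cKO library A5. Why the counts changed was not tested.

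Some genes that were not called changed sign. Rescaled to CD3, cDKO values turned to 0.22 (Mcm4), 0.033 (Chaf1b), 0.19 (Slbp), 0.007 (E2f1) and 0.37 (Cdkn1a). On that scale Prdm1 cKO values turned to 0.41 (Cdt1), 0.22 (Gins1), 0.33 (Prim2), 0.22 (Pcna), 0.18 (Tyms), 0.10 (Ung), 0.35 (Slbp) and 0.46 (Cdkn1b), and Top2a in c-Maf cKO to -0.058. The CD3 rescaling also raised the median of all genes tested, to 0.38 for Prdm1 cKO and 0.31 for cDKO. For c-Maf cKO it lowered that median to -0.19. Cdt1 and Cdkn1b in Prdm1 cKO, Cdkn1a in cDKO and Top2a lay above the median gene. The other genes that turned on this scale lay below it. With column set as a covariate Cdkn1a in cDKO turned to 0.42, Gins1 and Cdkn1b in Prdm1 cKO to 0.10 and 0.055, and Mcm7, Mki67 and Top2a in c-Maf cKO to -0.075, -0.23 and -0.36. With code letter, Gins1 and Cdkn1b in Prdm1 cKO turned to 0.065 and 0.056, and Mki67 and Top2a in c-Maf cKO to -0.12 and -0.089. In Prdm1 cKO, Cdkn1a turned to -0.10 and Cdkn1b to 0.24 with the marker scores, and Cdkn1b to 0.04 with median-of-ratios scaling. Leaving out 1 library gave -0.36 to 0.41 for Cdkn1a in cDKO, and in Prdm1 cKO -0.16 to 0.081 for Cdt1, -0.43 to 0.034 for Gins1, -0.27 to 0.015 for Prim2, -0.74 to 0.056 for Pole, -0.24 to 0.031 for Slbp and -0.10 to 0.06 for Cdkn1b. The cause was not tested for any of these.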
